A study of Mus musculus with 30 samples.

Results

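The genes described here supply amino acids to the ribosome or load them onto tRNA. They are the cytosolic aminoacyl-tRNA synthetases, the enzymes that make serine, glycine, asparagine and one-carbon units, a set of amino acid transporters, and the stress response effectors Chac1 and Sesn2. The set is a list of 37 named genes matched to the array by gene symbol. The matching used no measured value, but the list was chosen with earlier results of these data known. Where a gene had several probe sets, the brightest was used. A probe set carrying a single gene symbol was found for 35 of the 37, among 19937 genes with such a probe set. In each of the 2 experiments 33 of them were bright enough to test, of 12098 genes tested in all in the first and of 11050 in the second. Dars, the aspartyl-tRNA synthetase, and Aars, the alanyl-tRNA synthetase, had no probe set of their own and were not analysed here. The cystine transporter Slc7a11 and the neutral amino acid transporter Slc1a4 were dim in the first experiment, with log2 signals of 3.34 to 4.58 and 4.03 to 5.13, and did not pass the filter on low values in either experiment.

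B cells were sorted from mesenteric lymph nodes of CeGFP BALB/c mice on day 10 of infection with the intestinal worm Nippostrongylus brasiliensis, and their RNA was hybridised to 30 Affymetrix Mouse Gene ST arrays. Each array carried RNA from a pool of 3 mice, and replicates came from independent sorts. The first experiment held 18 arrays, comprising 4 of IgE plasma cells (PC), 2 of GFP+ IgG1 PC, 3 each of IgE germinal centre (GC) cells, GFP+ IgG1 GC cells and GFP- IgG1 GC cells, and 3 of naive B cells. The second held 12 arrays of IgG1 GC cells, 3 each of GFP+ dark zone (DZ), GFP- DZ, GFP+ light zone (LZ) and GFP- LZ cells. The PC gate was CD95+CD138+ and the GC gate B220+CD95+CD138-. The naive gate was B220+CD95-CD138-IgG1-IgE-, with no GFP gate stated. For the zones, the DZ gate took CXCR4 high, CD86 low cells and the LZ gate the reverse. Every mouse carried the same allele, an IRES-GFP cassette knocked into the 3′UTR of membrane IgE, and every mouse was infected, so no uninfected animal was analysed here. As a reporter the allele has a limit: GFP marks IgE cells but also IgG1 cells whose silent heavy chain chromosome had rearranged to the epsilon constant region.

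Aminoacyl-tRNA synthetases join each amino acid to its tRNA, and cells that make much secreted protein depend on that charging. When charged tRNA runs short, or the endoplasmic reticulum is loaded beyond its folding capacity, kinases phosphorylate the initiation factor eIF2, and translation of the transcription factor Atf4 rises. Atf4 binds amino acid response elements in many of the genes described here, an arrangement known as the integrated stress response. Plasma cells are textbook secretory cells, and GC B cells are rapidly dividing ones, so both place demands on amino acid supply.

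The promoters are shown first, because several of these genes share one short element, and their values are set side by side further down. RefSeq promoters of build GRCm38.p6, covering 250 bases before to 50 after each transcription start, were found for 27 of the 37 genes. The letters TGATGNAA, the core of the ATF4 and C/EBP response element, were searched on both strands. They occurred in 9 of the 30 promoters listed for these genes, 1 promoter in each of 9 genes, against 1304 of all 32851 promoters (3.97%). Those of Aars and Slc7a11 held more than 1 match. The E-box CACGTG occurred in 3 of the 30, those of Aars, Iars and Tars, against 2349 of all promoters (7.15%). These 3 promoters also held TGATGNAA, at other bases. The 6 genes below held the element and were tested on the arrays. Capitals mark the element or its reverse complement, and each window of 30 bases reads 5′ to 3′ along its gene.
Asns: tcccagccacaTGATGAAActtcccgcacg
Chac1: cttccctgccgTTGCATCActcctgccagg
Gars: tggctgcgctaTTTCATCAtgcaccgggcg
Iars: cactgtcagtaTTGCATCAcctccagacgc
Tars: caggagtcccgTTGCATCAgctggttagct
Yars: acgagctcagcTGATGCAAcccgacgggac
The windows lie at chr6:7693214-7693243 on the minus strand for Asns and at chr2:119351038-119351067 on the plus strand for Chac1. For Gars the window is chr6:55037960-55037989 and for Iars chr13:49682126-49682155, both on the plus strand. For Tars it is chr15:11399655-11399684 on the minus strand, and for Yars chr4:129189895-129189924 on the plus strand. Relative to the transcription start, the first base of the element lay at -23 in Asns, -193 in Chac1, -30 in Gars, -15 in Tars, 7 in Iars and 3 in Yars. The other 3 genes with the element were Aars, Slc1a4 and Slc7a11. A match of letters describes these windows and does not show binding.

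Values are log2 signals, and a difference of 1 is a 2-fold one. Array medians ran between 5.28 and 5.47, the mean correlation of an array with the others of its group ran between 0.892 and 0.973, and no pair of arrays held identical values. GFP+ IgG1 GC replicate 3 was the lowest array of its group for 22 of the 35 genes and GFP- DZ replicate 2 for 21 of 35. GFP+ LZ replicate 2 and GFP- LZ replicate 2 were lowest for 18 each. Naive replicate 1 and IgE GC replicate 1 were lowest for 16 each, and IgG1 PC replicate 1, of 2 arrays, for 20. The sorts carried their markers: all 6 plasma cell markers tested were higher in PC than in GC cells of either isotype, and all 5 GC markers tested were higher in each GC group than in naive cells. The marker lists include Sdc1 and Fas, which encode proteins used in the sort gates, so their direction follows from the sort. Cycling genes averaged 9.21 to 9.64 on the IgE PC arrays, 9.38 to 9.72 on the IgG1 PC arrays, 9.86 to 10.10 on the IgE GC arrays and 9.79 to 9.90 on the GFP+ IgG1 GC arrays, against 4.98 to 5.14 on the naive arrays. Of the natural killer and the basophil and mast cell markers, none was above the array median on all arrays of any group.

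GC cells carried more mRNA of most of these genes than naive cells did. Genes were called where limma's adjusted p (Benjamini-Hochberg over all genes tested) was under 0.05. In IgE GC cells 21 of the 33 genes rose over naive cells and none fell, where 19.3% of all genes tested were called higher and 7.4% lower. The counts were 18 of 33 in GFP+ IgG1 GC cells, against 16.8% of all genes higher and 6.43% lower, and 21 of 33 in GFP- IgG1 GC cells, against 20.5% higher and 9.35% lower. No member fell in either. The median log2 difference of the 33 was 0.87, 0.92 and 0.85 in these comparisons, where the medians of all genes were 0.06, 0.02 and 0.07. These 3 comparisons share the naive arrays. In sorted bulk samples, fewer cells of a type and less RNA per cell cannot be told apart. Of these calls, 15, 11 and 12 were kept in every alternative setting. All 4 cycling genes tested also rose in each GC group, Mki67 by 6.06 in IgE GC cells, and their part in the result was not tested.

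The largest difference between GC and naive cells was that of Psat1, the aminotransferase of serine synthesis. Its log2 signal was 8.62, 8.89 and 8.83 in IgE GC cells, 8.92, 8.87 and 9.08 in GFP+ IgG1 GC cells and 8.82, 8.86 and 8.77 in GFP- IgG1 GC cells, against 6.40, 5.96 and 5.04 in naive cells. Every GC array stood above every naive array, and naive replicate 3 lay below its array median of 5.45. The log2 difference was 2.98 ± 0.29 in IgE GC cells (SE, limma adjusted p = 9.56e-07), 3.16 ± 0.29 in GFP+ IgG1 GC cells (adjusted p = 5.07e-07) and 3.02 ± 0.29 in GFP- IgG1 GC cells (adjusted p = 8.98e-07). The other enzymes of serine synthesis had smaller differences. Psph, the phosphatase of its last step, rose by 0.74, 0.62 and 0.61 in IgE, GFP+ IgG1 and GFP- IgG1 GC cells. Phgdh, the dehydrogenase of its first step, differed by 0.52, 0.25 and 0.28 and passed the test in none (adjusted p = 0.141, 0.504 and 0.403).

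Asns, the enzyme that makes asparagine from aspartate and glutamine, had signals of 6.94, 7.17 and 6.93 in IgE GC cells, against 4.95, 4.43 and 4.74 in naive cells. In GFP+ IgG1 GC cells the arrays read 6.93, 7.28 and 5.33, and in GFP- IgG1 GC cells 6.89, 6.90 and 7.07. No GC array overlapped the naive ones, although GFP+ IgG1 GC replicate 3 lay far below its partners. The 3 naive arrays lay below their array medians, of 5.38 to 5.47, so the size of any difference from naive cells rests on a dim signal. As measured, the log2 difference was 2.31 ± 0.36 in IgE GC cells (adjusted p = 0.000138), 1.80 ± 0.36 in GFP+ IgG1 GC cells (adjusted p = 0.00136) and 2.25 ± 0.36 in GFP- IgG1 GC cells (adjusted p = 0.000187). The mitochondrial enzymes that draw one-carbon units from serine also rose. Mthfd2 was higher by 1.72 in IgE GC cells, by 1.71 in GFP+ IgG1 GC cells and by 1.50 in GFP- IgG1 GC cells, and Shmt2 by 1.03, 1.02 and 0.99. Mthfd1, the cytosolic folate enzyme, rose by 1.17, 1.30 and 1.12 in the same order. Without naive replicate 1 none of the Mthfd1 differences was called, at adjusted p of 0.12 in IgE GC cells, 0.0856 in GFP+ IgG1 GC cells and 0.134 in GFP- IgG1 GC cells. Shmt1, the cytosolic counterpart of Shmt2, had a difference of 0.67 ± 0.24 in IgE GC cells (adjusted p = 0.0443), a call lost without any 1 of the 6 arrays compared. It differed by 0.62 in GFP+ IgG1 GC cells and 0.61 in GFP- IgG1 GC cells, neither called.

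Among the 16 cytosolic synthetases tested, 11 rose in IgE GC cells, 9 in GFP+ IgG1 GC cells and 12 in GFP- IgG1 GC cells. Those of asparagine (Nars, 1.45, 1.57 and 1.49), lysine (Kars, 1.57, 1.40 and 1.40) and glutamine (Qars, 1.47, 1.20 and 1.41) had the largest differences from naive cells. Kars read 8.43, 8.23 and 8.42 in IgE GC cells, against 6.70, 6.98 and 6.70 in naive cells, so that the groups lay well apart. Qars was low in naive replicate 1, at 5.28 against 6.76 and 6.98 in the other naive arrays. Without that array its difference was 0.93 in IgE GC cells, 0.88 in GFP- IgG1 GC cells and, no longer called, 0.67 in GFP+ IgG1 GC cells (adjusted p = 0.0674). Vars, the valyl-tRNA synthetase, differed by -0.10, 0.05 and -0.17 in IgE, GFP+ IgG1 and GFP- IgG1 GC cells and was not called.

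Of the 7 transporters tested, the same 3 were called in each GC group. Slc7a5, the light chain of the large neutral amino acid transporter LAT1, rose by 1.59 in IgE GC cells, 1.78 in GFP+ IgG1 GC cells and 1.57 in GFP- IgG1 GC cells. Slc38a1, a sodium-coupled carrier of glutamine and other neutral amino acids, rose by 1.43, 1.30 and 1.34, and Slc1a5, another glutamine carrier, by 1.01, 1.10 and 0.95. Without naive replicate 1 the Slc1a5 call was lost in IgE GC cells (adjusted p = 0.0717) and GFP- IgG1 GC cells (adjusted p = 0.0939). Slc3a2, the CD98 heavy chain that brings Slc7a5 to the cell surface, differed by 0.09, -0.04 and 0.08. Chac1, which breaks down glutathione, and Sesn2, a leucine-binding inhibitor of mTORC1 signalling, were not called in any GC group. Slc7a6, a cationic and neutral amino acid exchanger that also pairs with Slc3a2, differed by 0.63 ± 0.44 in IgE GC cells and was not called (adjusted p = 0.302). Naive replicate 1 read 9.06 for it, against 7.12 and 6.45 in the other naive arrays, and without that array the difference was 1.39 in IgE GC cells, 1.30 in GFP+ IgG1 GC cells and 1.35 in GFP- IgG1 GC cells, each called.

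**Figure D1:**
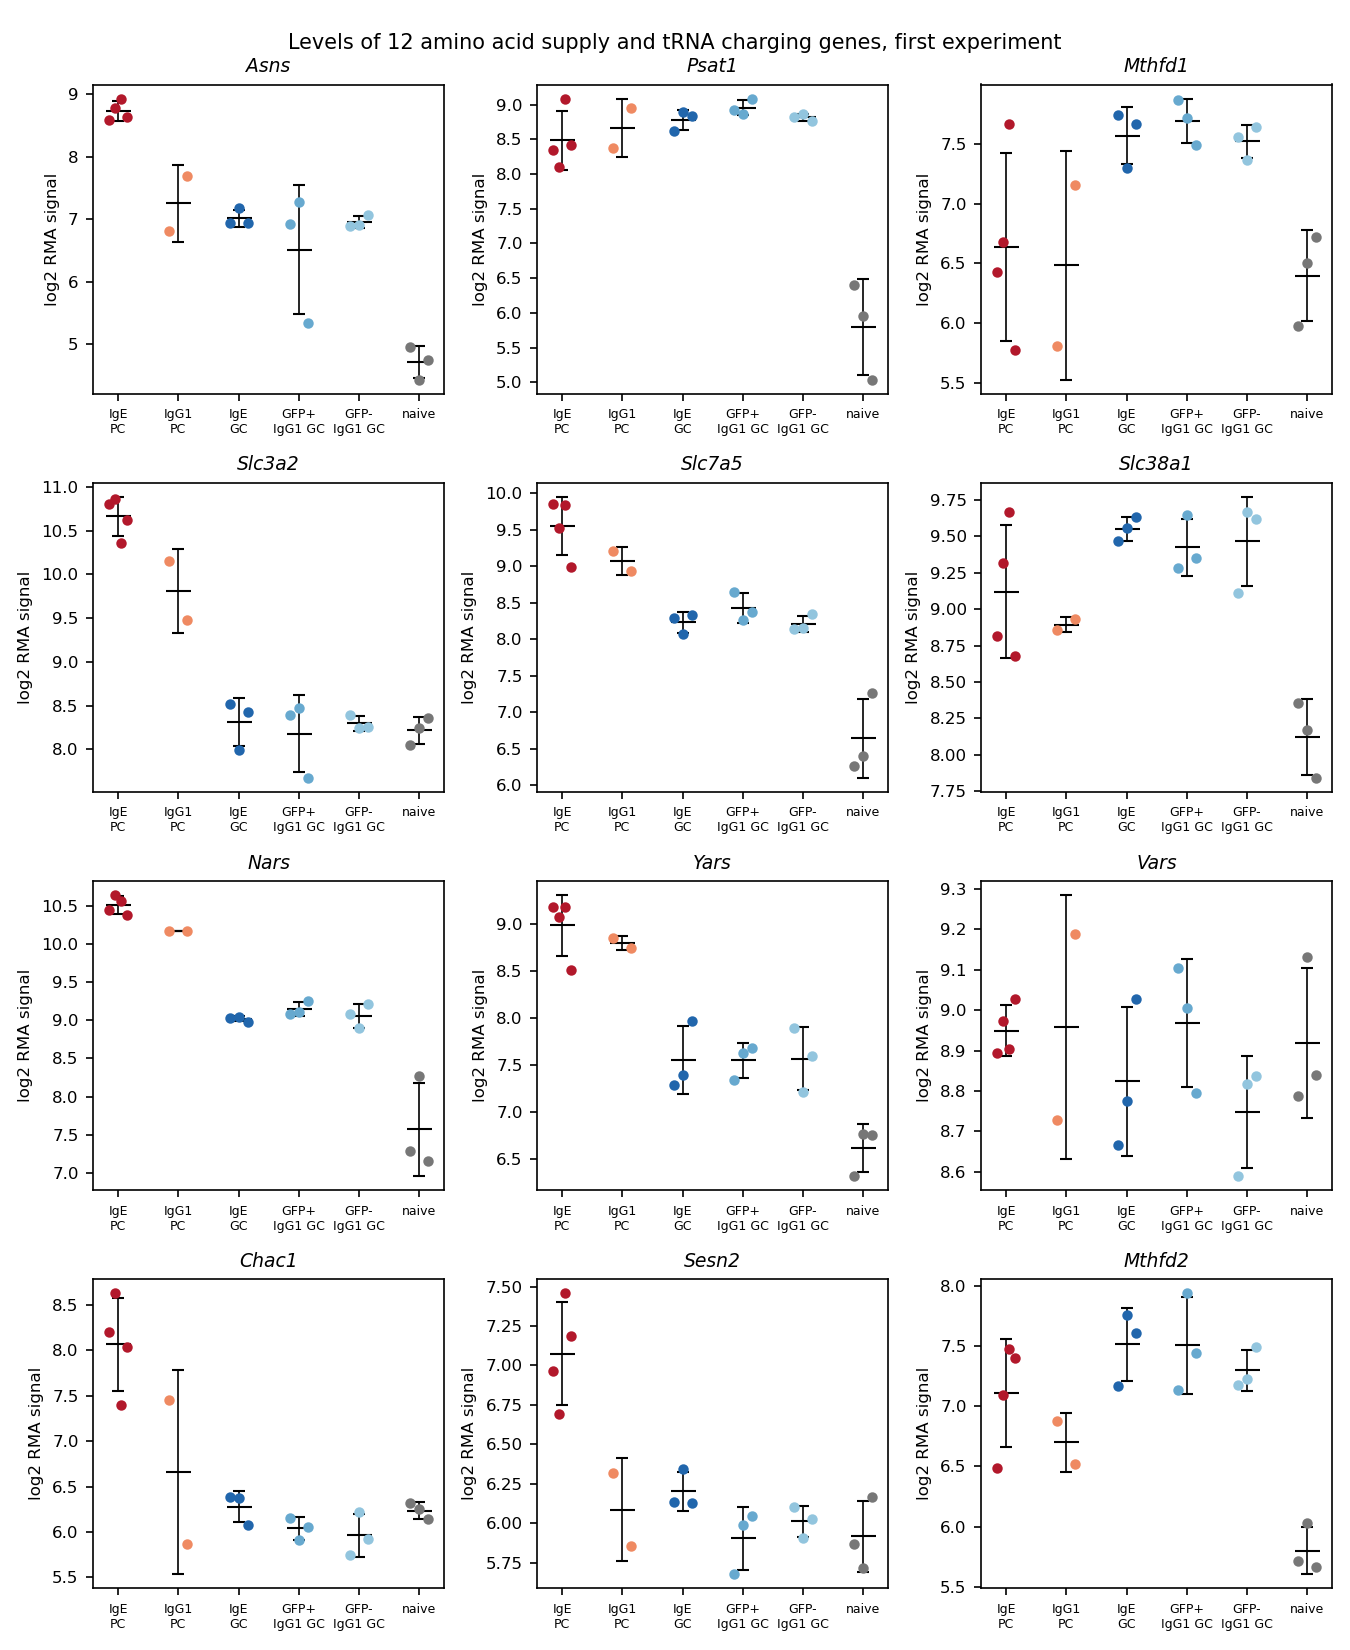
Log2 signal of 12 of the genes on every array of the first experiment, with groups on the x axis, points for arrays, a line for the group mean and bars for the SD (2 to 4 arrays a group). Psat1 separates GC and PC arrays from naive arrays, whereas Slc3a2 is high on all PC arrays and Chac1 on the 4 IgE PC arrays, at 7.40 to 8.63, with IgG1 PC replicate 1 within that range at 7.45.

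IgE PC differed from IgE GC cells in a subset of these genes, led by the transporter heavy chain Slc3a2, the stress effector Chac1, Asns and Nars. In IgE PC 18 of 33 rose over IgE GC cells and none fell, where 10.2% of all genes tested were called higher and 13.4% lower. The log2 difference was above 0 for 27 of 33, with a median of 0.57, where the median of all genes was -0.03. By role, 10 of 16 cytosolic synthetases rose (median 0.63), 3 of 8 synthesis enzymes (median 0.07), 3 of 7 transporters (median 0.37), and both Chac1 and Sesn2. Of the 18 calls, 8 were kept in every alternative setting (Nars, Tars, Yars, Asns, Slc7a5, Slc3a2, Chac1 and Sesn2), and the count fell to 8, 11 or 10 when IgE GC replicate 1, 2 or 3 was left out.

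Slc3a2 showed the largest of these differences. Its log2 signal was 10.81, 10.86, 10.36 and 10.62 in IgE PC, against 8.52, 8.0 and 8.42 in IgE GC cells. In IgG1 PC it was 10.15 and 9.48, against 8.39, 8.48 and 7.68 in GFP+ IgG1 GC cells. PC arrays of either isotype lay above all GC and naive arrays, the naive ones reading 8.05, 8.25 and 8.36. The log2 difference was 2.35 ± 0.22 between IgE PC and IgE GC cells (adjusted p = 4.3e-07, 5.10-fold) and 1.63 ± 0.26 between IgG1 PC and GFP+ IgG1 GC cells (adjusted p = 0.000174). Its partner Slc7a5 read 9.85, 9.52, 9.83 and 8.99 in IgE PC, against 8.30, 8.07 and 8.33 in IgE GC cells, a difference of 1.32 ± 0.24 (adjusted p = 0.000454). In IgG1 PC it read 9.20 and 8.93, against 8.65, 8.26 and 8.37 in GFP+ IgG1 GC cells, and the difference of 0.64 ± 0.28 was not called (adjusted p = 0.125), although it was with the replicate block (0.73, adjusted p = 0.0361). The third transporter called in IgE PC was Slc38a2, a neutral amino acid carrier, at 0.59 ± 0.21 (adjusted p = 0.0488). That call was lost in several alternatives, for instance at adjusted p = 0.159 without IgE GC replicate 3.

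Asns read 8.58, 8.77, 8.93 and 8.64 in IgE PC, against 6.94, 7.17 and 6.93 in IgE GC cells. The lowest IgE PC array lay more than 1 log2 unit above the highest IgE GC array. The difference was 1.72 ± 0.33 (adjusted p = 0.000941, 3.28-fold), and Asns was also called against naive cells (adjusted p = 5.7e-08), where no fold is given because the naive signal was dim. In IgG1 PC the arrays read 6.81 and 7.69, against 6.93, 7.28 and 5.33 in GFP+ IgG1 GC cells. These groups overlapped, and the difference of 0.74 ± 0.40 was not called (adjusted p = 0.218). Without GFP+ IgG1 GC replicate 3 it was 0.15 (adjusted p = 0.723). Shmt2 and Psph were the other synthesis enzymes called in IgE PC over IgE GC cells, at 0.55 ± 0.17 (adjusted p = 0.0218) and 0.44 ± 0.14 (adjusted p = 0.0353). Both calls were lost without IgE GC replicate 1, at adjusted p = 0.143 for Shmt2 and 0.0904 for Psph.

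Not every enzyme moved with Asns. Psat1 differed by -0.29 ± 0.27 between IgE PC and IgE GC cells and by -0.29 ± 0.32 between IgG1 PC and GFP+ IgG1 GC cells, and was called in neither (adjusted p = 0.527 and 0.584). Mthfd1 read 6.43, 6.68, 7.67 and 5.77 in IgE PC, against 7.75, 7.30 and 7.66 in IgE GC cells, with IgE PC replicate 3 inside the GC range. Its difference was -0.93 ± 0.36 in IgE PC (adjusted p = 0.0731) and -1.21 ± 0.43 in IgG1 PC (adjusted p = 0.0544). Without IgE PC replicate 3 it was called lower in IgE PC (-1.28, adjusted p = 0.00652), as it was with array weights (-0.93, adjusted p = 0.0223). In IgG1 PC it was called lower without IgG1 PC replicate 2 (-1.89, adjusted p = 0.0121), with the replicate block (adjusted p = 0.0481) and with a stricter filter (adjusted p = 0.0475). Mthfd2 differed by -0.40 and -0.81 in IgE and IgG1 PC and was not called. Top2a, Cdk1 and Mki67, genes of dividing cells, were lower in IgE PC than in IgE GC cells by 0.81, 0.61 and 0.37 on the log2 scale, while none of the 4 cycling genes tested was called in IgG1 PC over GFP+ IgG1 GC cells. The part of cycling in the Mthfd1 values was not tested.

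Nars had the largest difference among the synthetases in IgE PC over IgE GC cells, and Yars in IgG1 PC over GFP+ IgG1 GC cells. Nars read 10.44, 10.64, 10.56 and 10.39 in IgE PC, against 9.02, 9.05 and 8.98 in IgE GC cells. IgG1 PC read 10.18 on both arrays, against 9.08, 9.10 and 9.25 in GFP+ IgG1 GC cells. PC and GC arrays were well separated in either isotype, by 1.49 ± 0.20 in IgE (adjusted p = 3.37e-05) and by 1.03 ± 0.24 in IgG1 (adjusted p = 0.00556). Yars, for tyrosine, read 9.17, 9.07, 9.17 and 8.50 in IgE PC, against 7.29, 7.39 and 7.96 in IgE GC cells, and 8.84 and 8.74 in IgG1 PC, against 7.34, 7.62 and 7.68 in GFP+ IgG1 GC cells. Its difference was 1.44 ± 0.22 in IgE (adjusted p = 8.9e-05) and 1.24 ± 0.26 in IgG1 (adjusted p = 0.00205). Tars, for threonine, rose by 1.06 ± 0.18 in IgE PC (adjusted p = 0.000242), with a difference of 0.27 ± 0.21 in IgG1 PC (adjusted p = 0.421).

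Wars, for tryptophan, was higher by 1.08 in IgE PC (adjusted p = 0.0307), and Lars, for leucine, by 0.73 (adjusted p = 0.0279). The synthetases of isoleucine, serine, cysteine, glutamate with proline, and histidine (Iars, Sars, Cars, Eprs and Hars) rose by 0.48 to 0.72. Each of these 7 calls was lost without IgE GC replicate 1, at adjusted p from 0.0576 for Iars to 0.143 for Sars. Those of lysine, arginine, glycine, valine and glutamine differed by -0.09 to 0.35 from IgE GC cells and were not called. Mars, for methionine, differed by 0.74 ± 0.28 and was not called (adjusted p = 0.0689), but it was with only the groups compared (adjusted p = 0.00556), with array weights (0.0153) and without naive replicate 1 and GFP+ IgG1 GC replicate 3 together (0.0174). By structural class of the enzyme fold, 6 of 10 class I synthetases rose (median 0.65) and 4 of 6 class II synthetases (median 0.57).

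Chac1 read 8.20, 8.63, 7.40 and 8.04 in IgE PC, against 6.38, 6.38 and 6.08 in IgE GC cells. All 4 IgE PC arrays exceeded every GC and naive array, and the difference was 1.79 ± 0.30 (adjusted p = 0.000284, 3.45-fold). The 2 IgG1 PC arrays read 7.45 and 5.86, on either side of the GC arrays, which read 6.15, 5.91 and 6.06 in GFP+ IgG1 GC cells. The difference in IgG1 PC was 0.62 ± 0.36 and was not called (adjusted p = 0.259), but without IgG1 PC replicate 2 it was 1.41 (adjusted p = 0.00799). Sesn2 read 6.96, 6.69, 7.46 and 7.19 in IgE PC, against 6.14, 6.35 and 6.13 in IgE GC cells, a difference of 0.87 ± 0.19 (adjusted p = 0.00206). In IgG1 PC it read 6.32 and 5.85, against 5.68, 5.99 and 6.04 in GFP+ IgG1 GC cells, with overlapping arrays and a difference of 0.18 ± 0.22 (adjusted p = 0.623).

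Over all 33 genes, 4 rose in IgG1 PC over GFP+ IgG1 GC cells (Slc3a2, Yars, Nars and Lars) and none fell, where 8.32% of all genes were called higher and 13.1% lower. The median difference was 0.27, against -0.01 for all genes, and 24 of 33 lay above 0. Lars, at 0.85 ± 0.27 (adjusted p = 0.0338), was no longer called without IgG1 PC replicate 2 (adjusted p = 0.241), without GFP+ IgG1 GC replicate 3 (adjusted p = 0.126) or with the replicate block (adjusted p = 0.0542). Other settings made calls on the lower side: Slc38a1 at -1.30 with the mean of its probe sets (adjusted p = 0.011), and Mthfd2 at -0.99 without GFP+ IgG1 GC replicate 1 (adjusted p = 0.0355). Mthfd1, described above, was among them. With 2 arrays, the IgG1 PC group also held wide gaps between replicates, of 1.59 for Chac1, 1.35 for Mthfd1 and 1.01 for Sars.

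**Figure D2:**
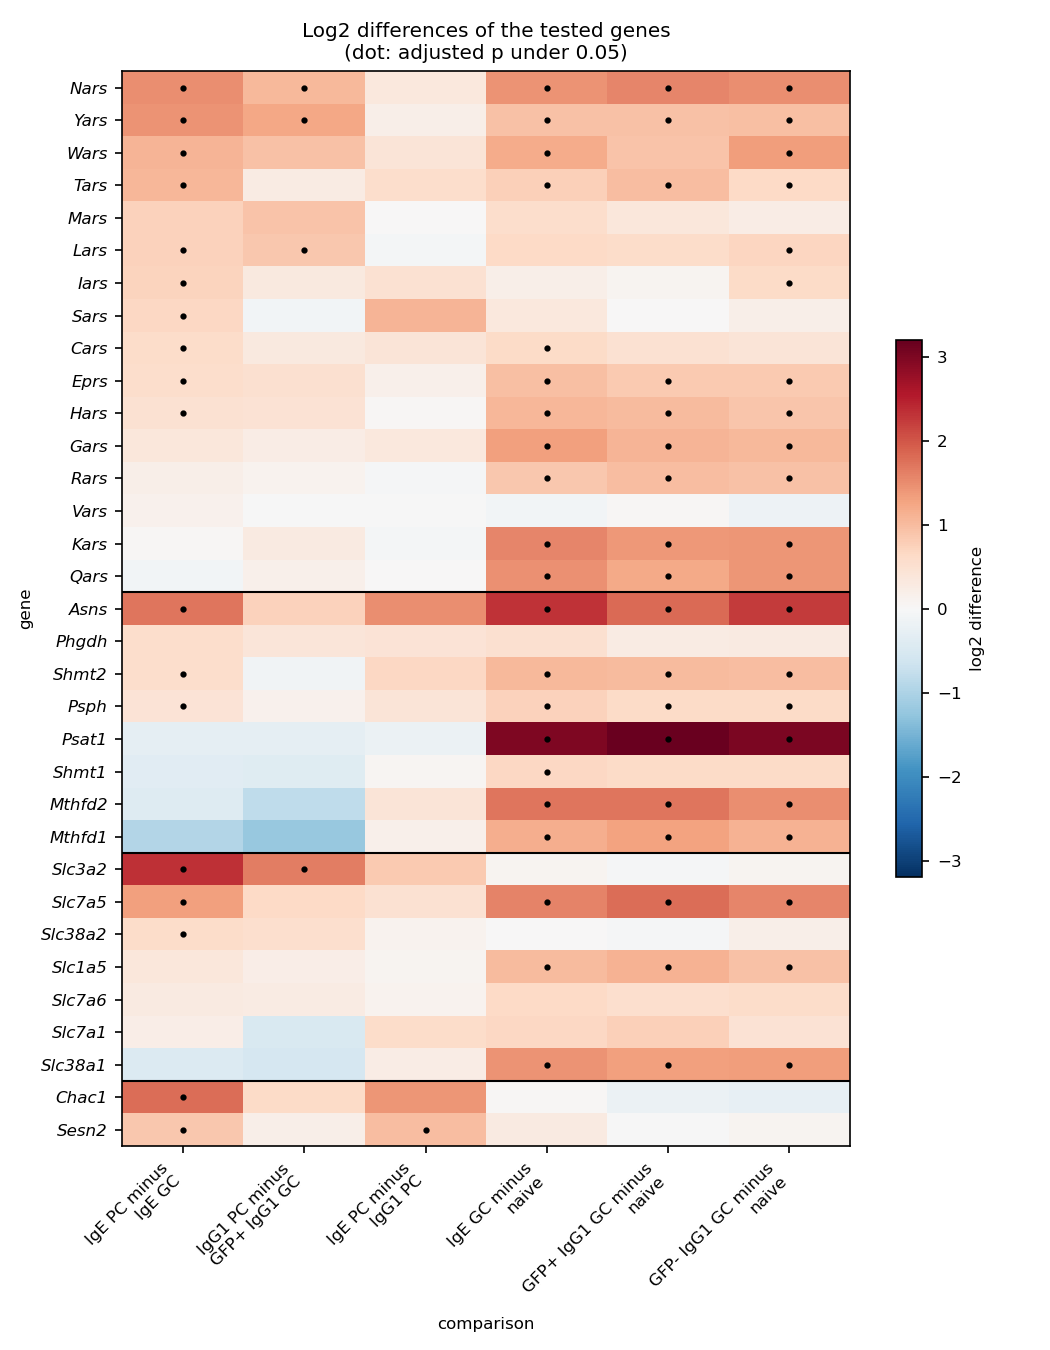
Log2 difference of the 33 genes tested (rows, ordered by role) in 6 comparisons of the first experiment (columns), coloured by size and direction, with a dot where limma's adjusted p was under 0.05. Dots mark 18 genes for IgE PC minus IgE GC, 4 for IgG1 PC minus GFP+ IgG1 GC and 1 for IgE PC minus IgG1 PC, and all are on the higher side.

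Markers of other cell types were compared in the same groups. The mean of 6 T cell genes ran 5.70 to 5.80 on IgE PC arrays and 5.89 to 6.33 on IgG1 PC arrays, against 4.87 to 5.58 in IgE GC cells, 4.83 to 4.94 in GFP+ IgG1 GC cells and 5.32 to 5.75 in naive cells. Of 5 tested, only Cd28, which plasma cells are known to express, was higher in PC than in GC cells, in IgE and in IgG1. Of the 6 genes, 1 was above the array median on all arrays of IgE GC and of GFP+ IgG1 GC cells. In each PC group and in naive cells 2 were. The GC signal of Cd28 may thus have been dim, and no size is given. The mean of 9 macrophage and dendritic cell genes ran 5.43 to 5.82 in IgE PC and 5.34 to 5.91 in IgG1 PC, against 5.30 to 5.61 in IgE GC cells, 5.15 to 5.34 in GFP+ IgG1 GC cells and 5.72 to 6.15 in naive cells. Of these 9 genes, Cd68 was higher in IgE PC by 1.48 and Cst3 in IgG1 PC by 1.32, and the others are not described here. Above the array median on all arrays were 3 of the 9 in IgE PC and 2 in IgG1 PC. The count was 3 in IgE GC and in GFP+ IgG1 GC cells. The mean of 5 neutrophil and eosinophil genes ran 4.37 to 5.05 in IgE PC and 4.73 to 4.88 in IgG1 PC, against 4.00 to 4.53 in IgE GC cells, 4.03 to 4.22 in GFP+ IgG1 GC cells and 4.16 to 5.19 in naive cells. Of 2 tested, Prg2, the major basic protein of eosinophils, was higher in IgE PC and in IgG1 PC. In IgE PC and in IgG1 PC 1 of the 5 genes was above the array median on all arrays, and in the GC and naive groups none. A gene that passes the filter on low values only through PC gives no sound size, so none is printed. Stromal and endothelial genes ran 5.81 to 6.2 in IgE PC, 6.08 to 6.13 in IgG1 PC, 5.96 to 6.35 in IgE GC cells, 6.06 to 6.28 in GFP+ IgG1 GC cells and 6.10 to 6.18 in GFP- IgG1 GC cells, against 6.58 to 6.97 in naive cells. Natural killer genes ran 3.59 to 3.87 in the PC and GC groups, against 4.02 to 4.32 in naive cells. The naive arrays were thus the highest for both lists. The part of all these cells in the PC differences, and in those of PC and GC cells from naive cells, was not tested.

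In IgE PC 29 of 33 genes rose over naive cells, and none fell, where 23% of all genes were called higher and 14.1% lower. The exceptions were Mthfd1, Shmt1, Slc7a6 and Vars. The median difference was 1.36, against -0.01 for all genes, and Nars was 7.66-fold and Slc7a5 7.49-fold higher. In IgG1 PC 22 of 33 rose over naive cells, and none fell, where 17.1% of all genes were called higher and 12.2% lower, with a median of 1.10 against 0.01 for all genes. A fit of only these 2 groups called 13 in IgG1 PC. Without naive replicate 1, Slc7a6 was also called, at 1.67 in IgE PC and 1.57 in IgG1 PC. These 2 comparisons share the naive arrays with those of the GC groups.

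Between the 2 isotypes of plasma cell, 28 of 33 genes lay above 0 in IgE PC minus IgG1 PC, with a median of 0.33 against 0.02 for all genes. Only Sesn2 was called, where 0.785% of all genes tested were called higher and 0.174% lower. Sesn2 differed by 0.99 ± 0.21 (adjusted p = 0.0357, 1.98-fold), and every IgE PC array was above both IgG1 PC arrays. The call was lost without IgE PC replicate 1 (adjusted p = 0.0547), IgE PC replicate 3 (0.0707), IgE PC replicate 4 (0.0775) or IgG1 PC replicate 2 (0.279). Asns differed by 1.48 ± 0.38 (adjusted p = 0.0772), Chac1 by 1.41 ± 0.34 (adjusted p = 0.0638), Sars by 1.08 ± 0.26 (adjusted p = 0.0627) and Slc3a2 by 0.85 ± 0.24 (adjusted p = 0.116). For Asns and Slc3a2 every IgE PC array exceeded both IgG1 PC arrays, whereas for Chac1 IgG1 PC replicate 1, at 7.45, lay just above the lowest IgE PC array. At an unadjusted p under 0.05 there were 10 of the 33 genes, as were 1575 of all 12098. Leaving out IgG1 PC replicate 1 brought the count of calls to 3, with Chac1 at 2.20 (adjusted p = 0.00271) and Slc3a2 at 1.19 (adjusted p = 0.0489). Chac1 was also called without IgE PC replicate 3, at 1.63 (adjusted p = 0.0298), and Sars without IgG1 PC replicate 2, at 1.58 (adjusted p = 0.0102). Without naive replicate 1 and GFP+ IgG1 GC replicate 3 together, Asns was called at the same 1.48 (adjusted p = 0.00326) and Sars at 1.08 (adjusted p = 0.0463). Neither of those arrays is in this comparison, but they enter the shared estimate of the spread. In the same comparison Gcsam, by 2.48, and Mybl1, by 1.35, among 5 GC markers with a probe set, were higher in IgE PC. So were Fcer2a, by 2.55, among 3 naive B cell markers, and Tnfrsf17, by 2.82, among 6 plasma cell markers. The other markers of these lists are not described here. None of the 4 cycling genes was called there. Their part in the differences between IgE and IgG1 PC was not tested.

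Whether the PC step itself differed between isotypes was tested by the interaction, the difference of IgE PC minus IgE GC and IgG1 PC minus GFP+ IgG1 GC, which share no array. None of the 33 genes was called, where 0.0909% of all genes were called in either direction, and the smallest adjusted p was 0.533, for Tars. At an unadjusted p under 0.05 there were 5 genes, as were 822 of all genes. Above 0 lay 28 of 33, with a median of 0.18 against 0.00 for all genes. Chac1 had the largest interaction, at 1.17 ± 0.47 (adjusted p = 0.635), followed by Asns at 0.98 ± 0.52 (adjusted p = 0.799) and Tars at 0.79 ± 0.28. The different counts of calls, 18 in IgE and 4 in IgG1, were thus not shown to be a difference between isotypes by this test.

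**Figure D3:**
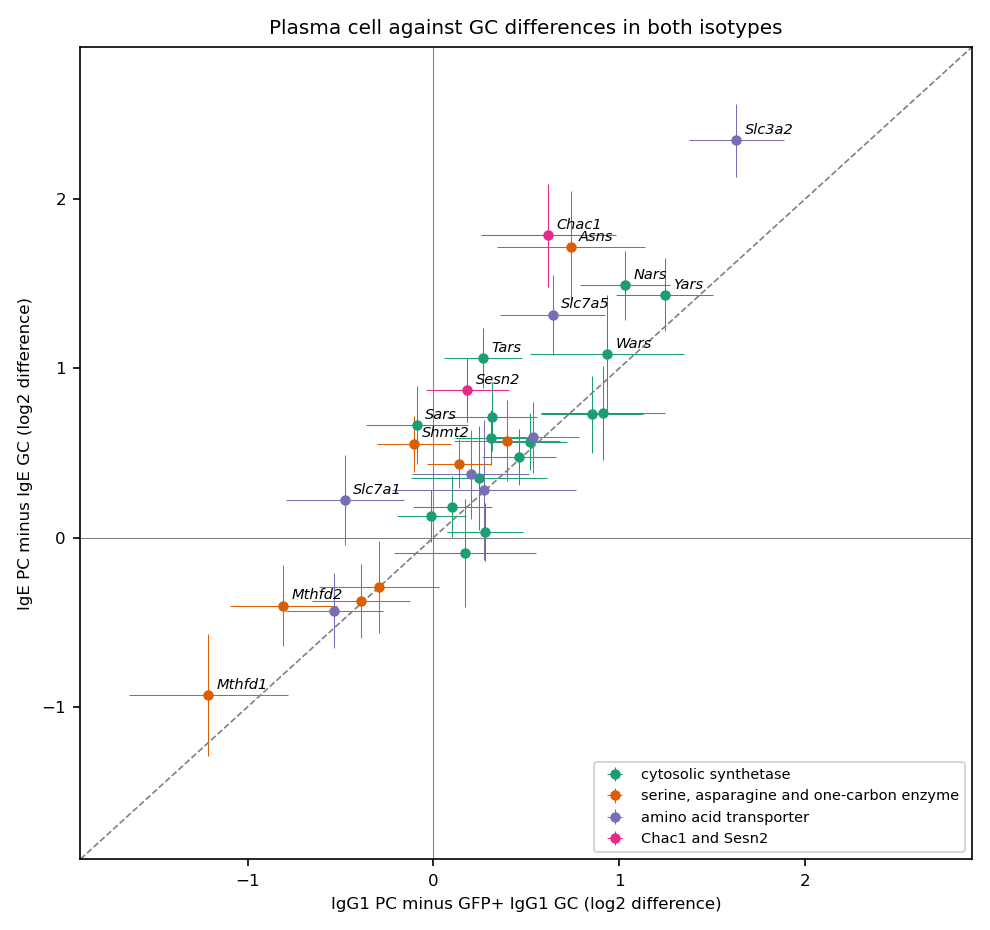
Log2 difference of IgE PC minus IgE GC (y axis) against IgG1 PC minus GFP+ IgG1 GC (x axis) for the 33 genes, coloured by role, with bars for 1 SE. The dashed line marks equal differences. Slc3a2 lies at 2.35 and 1.63, and Mthfd1 at -0.93 and -1.21.

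The GC groups were close to one another. Between IgE GC and GFP+ IgG1 GC cells none of the 33 genes was called by limma, none had an unadjusted p under 0.05, and differences ran from -0.24 for Tars to 0.50 for Asns, which was -0.09 without GFP+ IgG1 GC replicate 3. Across all genes 0% was called, with 264 genes under an unadjusted p of 0.05. Between GFP+ and GFP- IgG1 GC cells none was called either, against 0% of all genes. Differences ran from -0.52 for Iars to 0.36 for Tars, with Iars alone under an unadjusted limma p of 0.05, as were 265 of all genes. A second probe set of Iars gave 0.02 in place of -0.52 there. In the naive comparison the Iars sets gave 0.20 and 0.58 in IgE GC cells. The Slc38a1 sets disagreed for IgG1 PC minus GFP+ IgG1 GC, at -0.53 for the brighter and -2.07 for the other. They also disagreed for IgE PC minus IgG1 PC, at 0.23 and 1.84. In IgG1 PC minus naive, where Slc38a1 was called higher on the brighter set at 0.77, the other set gave -0.13.

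Within the germinal centre, 4 of 33 genes were higher in DZ than in LZ cells and none lower, where 3.92% of all genes tested were called higher and 3% lower. The median difference was 0.18, against 0.00 for all genes. Psat1 read 8.76, 8.50 and 8.85 in GFP+ DZ cells and 8.99, 8.62 and 9.05 in GFP- DZ cells, against 8.31, 8.42 and 8.43 in GFP+ LZ cells and 8.13, 8.13 and 7.96 in GFP- LZ cells. Every DZ array lay above every LZ array, and the difference was 0.57 ± 0.11 (adjusted p = 0.00721). It was 0.32 among GFP+ cells and 0.82 among GFP- cells, and the interaction of zone and GFP, -0.50, was not called (adjusted p = 0.986, unadjusted p = 0.0364).

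Slc1a5 read 9.72, 9.63 and 9.82 in GFP+ DZ cells and 9.67, 9.43 and 9.52 in GFP- DZ cells, against 9.28, 9.01 and 9.11 in GFP+ LZ cells and 9.09, 9.43 and 8.93 in GFP- LZ cells. The highest LZ array met the lowest DZ array at 9.43, and the difference was 0.49 ± 0.11 (adjusted p = 0.0181). Vars, not called between GC and naive cells in the first experiment, was higher in DZ cells by 0.57 ± 0.14 (adjusted p = 0.0243), and Mars by 0.53 ± 0.15 (adjusted p = 0.0464). Vars was not called without any 1 of 7 of the 12 arrays (adjusted p up to 0.0612), among them GFP+ DZ replicate 1 and GFP- LZ replicate 2, and Mars without any 1 of 10 (adjusted p up to 0.102, without GFP+ LZ replicate 2). The Mars call was also lost with the replicate block, with array weights, with a further quantile normalization, without the filter and with the other variance prior. The count of calls was 2 when GFP+ DZ replicate 1 or 3, GFP- DZ replicate 1 or 3, GFP+ LZ replicate 1 or GFP- LZ replicate 3 was left out.

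Of the 18 genes called higher in IgE PC than in IgE GC cells, 12 had a DZ minus LZ difference above 0 and 6 below 0, with a median of 0.12. Nars and Shmt2 lay highest among them, at 0.42 and 0.39, and neither was called in the main fit. Nars was called with array weights (adjusted p = 0.0473), with the replicate block (0.0336) and without GFP- DZ replicate 2 (0.0382). Shmt2 was called without that array (adjusted p = 0.0271). Among those below 0, Sesn2 differed by -0.43 ± 0.20 (adjusted p = 0.251), Slc38a2 by -0.28 ± 0.13 (adjusted p = 0.22) and Chac1 by -0.25 ± 0.12 (adjusted p = 0.242), none called. Sesn2 read 5.42, 6.16 and 5.78 in GFP+ DZ cells, against 5.85, 6.43 and 6.25 in GFP+ LZ cells, with overlapping arrays. Of the cycling genes 2 of 4 were higher in DZ cells, Plk1 by 1.34 and Mki67 by 0.63, and all 4 light zone markers were lower, Cd86 by 1.10. Cd86 was part of the sort, and the part of cycling in the zone differences was not tested. Between GFP+ and GFP- cells across zones none of the 33 was called, against 0% of all genes. Only Yars, at -0.36, had an unadjusted limma p under 0.05, as had 519 of all genes.

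**Figure D4:**
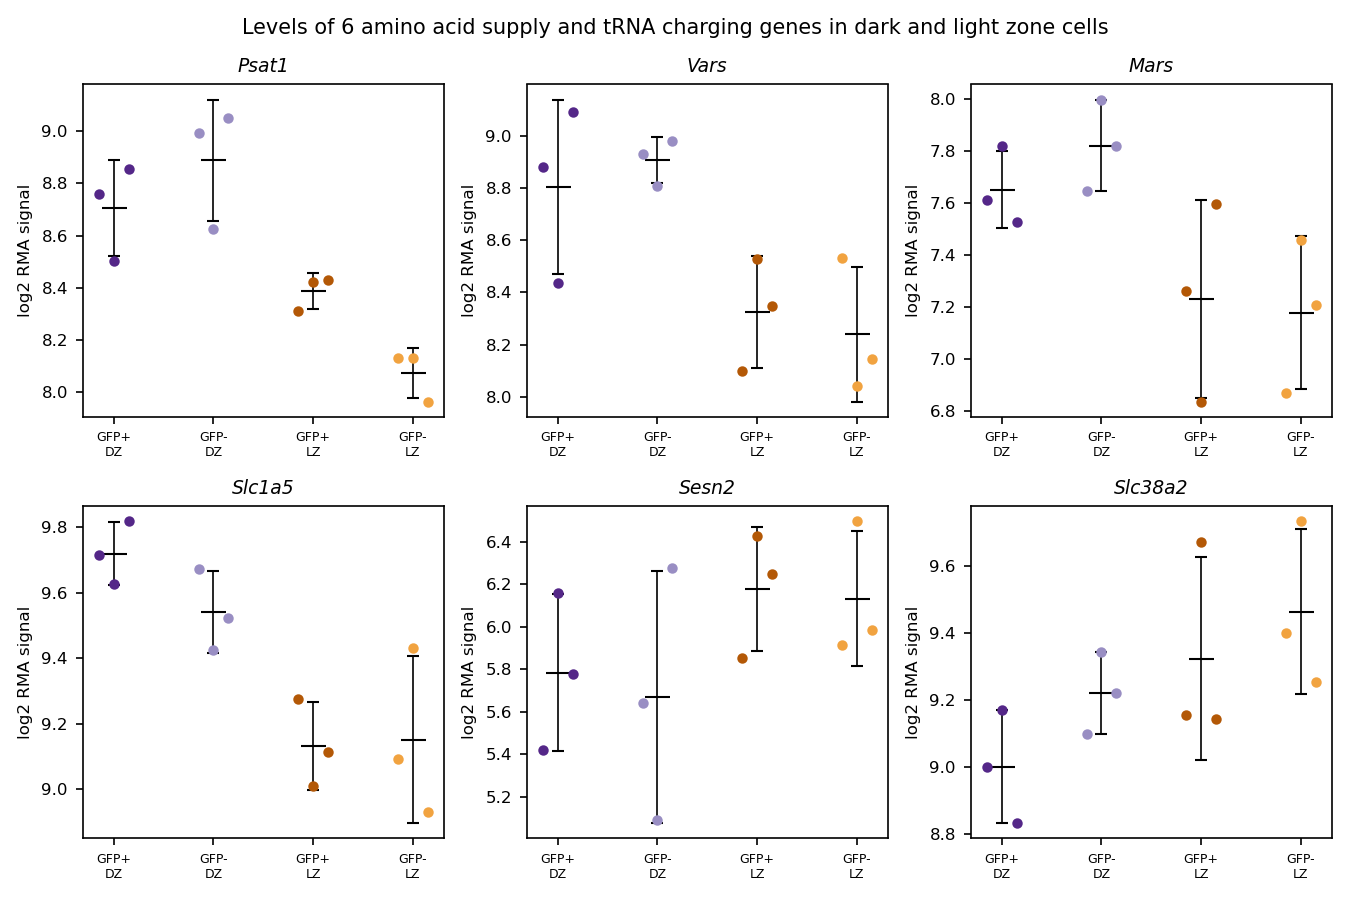
Log2 signal of 6 of the genes on the 12 arrays of the second experiment, with the zone and GFP groups on the x axis, points for arrays, a line for the mean and bars for the SD (3 arrays a group). Psat1 lies at 8.50 to 9.05 in DZ cells and 7.96 to 8.43 in LZ cells, while Sesn2 and Slc38a2 overlap between zones.

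Wider lists from the same pathways set the members in context. Of 16 mitochondrial synthetases tested, which charge tRNA for the organelle's own ribosomes, 1 rose in IgE PC over IgE GC cells, and the median was -0.11, against 10 of 16 and 0.63 for the cytosolic synthetases. The one was Cars2, at 1.00 ± 0.22 (adjusted p = 0.00257), where 10.2% of all genes were called higher and 13.4% lower. In IgG1 PC over GFP+ IgG1 GC cells Rars2 and Vars2 fell, by 0.72 and 0.54, where 13.1% of all genes were called lower and 8.32% higher. Between IgE GC and naive cells 2 mitochondrial synthetases rose and 1 fell (median -0.04), against 11 of 16 cytosolic ones that rose (median 0.90). Of all genes, 19.3% were called higher there and 7.4% lower. Of 6 other cytosolic synthetases and scaffold proteins of the synthetase complex, none was called in either PC over GC comparison, and Aimp1, a scaffold, rose by 1.15 in IgE GC over naive cells (adjusted p = 7.98e-05).

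**Figure D5:**
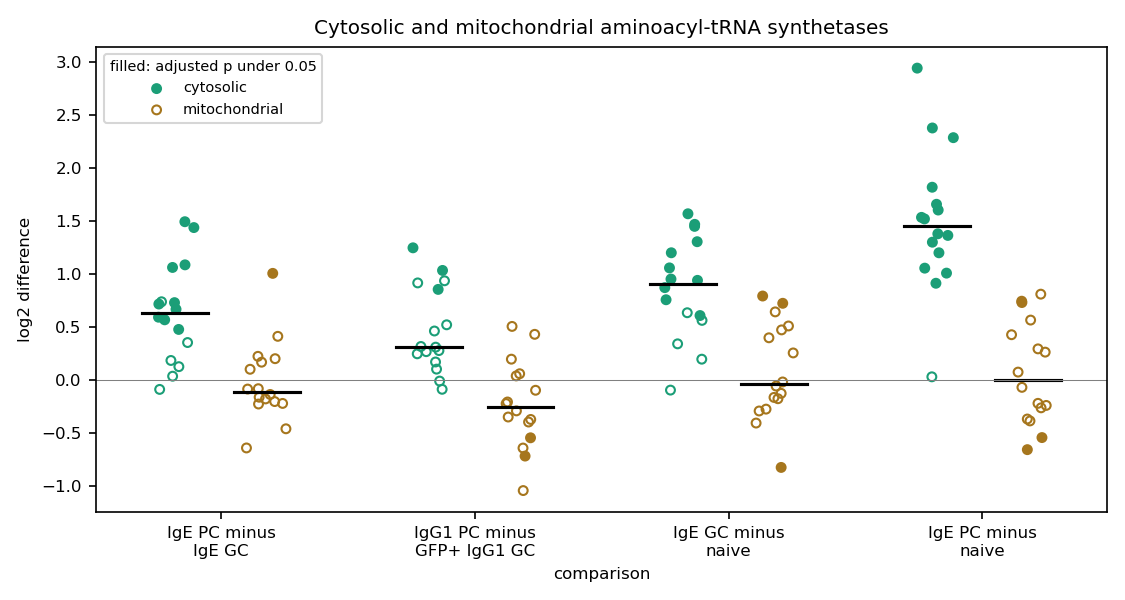
Log2 differences of the 16 cytosolic and 16 mitochondrial synthetases tested, in 4 comparisons of the first experiment. Points are genes, filled where limma's adjusted p was under 0.05, and lines are medians, at 0.63 and -0.11 for IgE PC minus IgE GC.

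Of 20 integrated stress response genes tested, 4 rose and none fell in IgE PC over IgE GC cells, with a median of 0.16. In that comparison, to which the counts of the next lists also belong, 10.2% of all genes were called higher and 13.4% lower, with a median of -0.03. Atf4 averaged 9.76 ± 0.17 in IgE PC (SD, n = 4), against 9.04 ± 0.03 in IgE GC cells (SD, n = 3). The difference was 0.73 ± 0.14 (SE, limma adjusted p = 0.000951). Ddit3, the stress factor CHOP, rose by 1.06 ± 0.17 (adjusted p = 0.000148), Atf5 by 0.86 and Eif2ak2, the kinase PKR, by 1.14. In IgG1 PC over GFP+ IgG1 GC cells Ddit3 rose by 0.79 ± 0.20 (adjusted p = 0.00889), and Atf4 differed by 0.47 ± 0.17 (adjusted p = 0.057). Eif2ak4, the kinase GCN2 that senses uncharged tRNA, was lower in IgE GC than in naive cells by 0.77 (adjusted p = 0.0104), where Atf4 was higher by 0.48 (adjusted p = 0.026). In DZ over LZ cells Eif2ak3, the kinase PERK, rose by 1.00 ± 0.14 (adjusted p = 0.00119), Ddit3 fell by 0.67 (adjusted p = 0.00504), and Atf4 differed by 0.02 (adjusted p = 0.955). Array signals measure mRNA and not the translation by which Atf4 is mainly controlled.

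Genes of the set with the TGATGNAA element, the windows printed above, were set beside those without it. In IgE PC over IgE GC cells 5 of the 6 with the element rose, with a median of 1.25 and a range of 0.35 to 1.79. Of the 17 whose promoters lacked it, within 250 bases before to 50 after the start, 7 rose, with a median of 0.44 and a range of -0.93 to 2.35. The 10 genes with no listed promoter, Nars, Slc7a5 and Wars among them, are in neither group. In IgG1 PC over GFP+ IgG1 GC cells the medians were 0.47 with and 0.17 without it. This division was made after the values were seen, so it is a description without a test, and the ranges overlap.

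Among 15 other amino acid transporters 2 were called higher and 2 lower in IgE PC over IgE GC cells. The count of 2 higher includes Slc7a3, whose call is not read as a result. Slc7a3 is a carrier of cationic amino acids. Its signal averaged 6.54 in IgE PC, with a range of 6.04 to 6.93, and was 4.25 and 5.31 in IgG1 PC, against 3.75 to 4.28 in IgE GC cells and 4.26 to 4.76 in GFP+ IgG1 GC cells. All arrays of those 3 groups lay below their own array medians. Among the groups compared, Slc7a3 thus passed the filter on low values only through IgE PC, where it is high, so no size, p-value or call is drawn from it. Slc38a10 rose by 1.66, while Slc6a6, the taurine carrier, fell by 1.43 and Slc36a4 by 0.78.

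Of 17 other amino acid synthesis and breakdown genes, 8 rose and 1 fell in IgE PC over IgE GC cells (median 0.05). Glul, which makes glutamine, fell by 3.35 ± 0.43 (adjusted p = 1.52e-05), and in IgG1 PC over GFP+ IgG1 GC cells it fell by 3.57 (adjusted p = 6.85e-05). Got1, an aspartate aminotransferase, rose by 2.25, Bcat2, a branched-chain aminotransferase, by 1.83, and Aldh18a1, of proline synthesis, by 1.79. Among 11 other one-carbon enzymes 1 rose and 3 fell: Aldh1l2 rose by 1.30, while Mthfd1l fell by 1.23, Atic by 0.85 and Gart by 0.68. Of 26 genes of amino acid sensing by mTORC1, 1 rose and 2 fell, among them Sesn3, a relative of Sesn2, which fell by 2.53 (adjusted p = 0.000137) where Sesn2 rose. Of 26 tRNA processing genes 2 rose and 3 fell.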

How the data were processed

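Per the submitters' processing notes, RMA in R 2.15.2 gave the deposited log2 signals. RNA, 2 ng per array, was amplified with SPIA, per the labels' protocols. The sources used here do not state if 1 RMA run covered all 30 arrays, and levels are compared within an experiment only. They give no batch or date, so batch was not tested.

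Of 34760 probe sets, 21640 had 1 symbol, 1321 several and 11799 none. Each gene took its brightest single-symbol probe set over all arrays, named from the platform annotation, where Mars is Mars1. Genes had to exceed the array median on 2 or more arrays in the first experiment and 3 or more in the second. The 14 comparisons (11 and 3) were contrasts of group means fitted in limma 3.58.1 (R 4.3.3) over all arrays of an experiment, with Benjamini-Hochberg adjustment over all genes and calls at an adjusted p under 0.05. Promoters were searched and plots drawn in Python 3.11.15 and matplotlib 3.10.9. The fit was tested on simulated data in which 200 genes changed. For IgE PC minus IgE GC it called 56% of the genes changed by 1 log2 unit and 97% of those changed by 2. For DZ minus LZ it called 90% and 99%. False calls were 3 of 156 and 10 of 199. A gene not called is thus not shown to be unchanged.

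The 37 members, 8 wider lists (177 genes) and marker lists were chosen with earlier results of these data known. All members could be named, and of each wider list the 4 called genes with the largest difference per comparison, with Atf4 and Eif2ak4 always. Groups of 2 to 4 arrays limit the precision, and p-values measure the spread between pools of mice. Samples with the same replicate number deviated together in GFP+ and GFP- IgG1 GC cells (r of 0.109 to 0.154 for the 3 pairs), so those count as paired; elsewhere not every pair exceeded 0.1. Alternatives changed the normalization, the filter, the probe set rule, the samples fitted, the variance prior, array weights, the replicate block and the arrays included.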

Additional observations from a re-analysis of the deposited data

Results flagged for a closer look

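Yars, the tyrosyl-tRNA synthetase, had 1 array far from the others of its group. IgE PC replicate 4 read 8.50, against 9.07 to 9.17 on the other 3 IgE PC arrays. The gap was 0.851 of the group's range, above Dixon's critical value for 4 samples. Of 35 genes examined in IgE PC this was the only one, and chance alone marks about 1 in 20 such groups. The 8.50 still lay above every IgE GC array, the highest of which read 7.96.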

How the results depend on the processing

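Across 138 member calls in the 14 comparisons, 91 were kept in every alternative, 47 were lost in at least 1, and none turned its direction. The count of members called in IgE PC minus IgG1 PC, 1 in the report, was 0 after a further quantile normalization, with only the groups compared, with array weights and with the replicate block. It was 3 without naive replicate 1 and GFP+ IgG1 GC replicate 3 together, and 0 to 3 when 1 array was left out. In IgG1 PC minus naive the 22 calls became 13 with only the groups compared, and 18 to 22 with 1 array left out. Leaving out 1 array gave 8 to 14 calls in IgE PC minus IgE GC (18 in the report), 3 to 6 in IgG1 PC minus GFP+ IgG1 GC (4), 17 to 21 in IgE GC minus naive (21), 15 to 23 in GFP+ IgG1 GC minus naive (18), 15 to 22 in GFP- IgG1 GC minus naive (21), 28 to 29 in IgE PC minus naive (29) and 2 to 5 in DZ minus LZ (4). The comparisons with 0 calls among the members stayed at 0 throughout. With the replicate block 13 members were called in IgE PC minus IgE GC, 5 in IgG1 PC minus GFP+ IgG1 GC and 0 between GFP+ and GFP- IgG1 GC cells. In IgE PC and IgE GC cells all 3 samples correlated best with their own number, at r of 0.045 to 0.0879, a hint from the data and not the design. The same held for all 3 samples of IgE GC and naive cells. It also held in each pairing of zone groups except GFP- DZ with GFP- LZ, where it held for 2 of 3. In DZ minus LZ the replicate block called Nars (adjusted p = 0.0336) and lost Mars. The cause of these changes was not tested.

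Over all genes, the 116 calls of IgE PC minus IgG1 PC became 0 with only the groups compared, 46 with array weights, 72 with the replicate block, 227 without naive replicate 1 and GFP+ IgG1 GC replicate 3 together, and 76 to 253 with 1 array left out. With only the groups compared, the 3540 calls of IgG1 PC minus naive became 1670, the 3230 of IgE GC minus naive 2037, the 2813 of GFP+ IgG1 GC minus naive 1527 and the 3606 of GFP- IgG1 GC minus naive 2061, while GFP+ minus GFP- IgG1 GC had 1 where the report has 0. The 11 interaction calls became 1 with only the groups compared, 5 with the block, 17 with array weights, and 2 to 37 with 1 array left out. Leaving out GFP+ LZ replicate 2 brought the 764 calls of DZ minus LZ to 480. A further quantile normalization moved the share of higher calls to 71.4% in IgE PC minus IgG1 PC, where the report's fit gives 81.9%, and to 46.5% in DZ minus LZ, where it gives 56.7%. It also called Vars lower in GFP- IgG1 GC minus naive (-0.46, adjusted p = 0.0394). Dim genes, Slc7a11 and Slc1a4 among them, were below what these signals could test.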
